A study of Homo sapiens with 8 samples.

Results

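The 10 genes described here encode cyclins of the G1 phase of the cell cycle and proteins that hold cyclin-dependent kinases in check: the D-type cyclins CCND1, CCND2 and CCND3, the E-type cyclins CCNE1 and CCNE2, cyclin G2 (CCNG2), the CIP/KIP inhibitors CDKN1A, CDKN1B and CDKN1C, and the INK4 inhibitor CDKN2B. They were chosen by gene symbol, and every listed transcript whose RefSeq identifier belongs to one of them was used, which gave 13 of the 24812 transcript rows and 10 of the 14528 named genes. The values come from SQ20B, an established human line of head and neck squamous cell carcinoma. Cells kept in normoxia (4 libraries) were compared with cells kept at 0.5% O2 for 16 h (4 libraries), and both groups were grown in the same high-glucose medium with serum, with no genetic change or drug in either. The labels do not state the oxygen level of the normoxic incubator. The authors' table gives 1 FPKM, a count of sequenced fragments scaled to transcript length and sequencing depth, per transcript and condition, combined over its libraries, so no spread between replicates can be given and no test was run. Being scaled by transcript length, FPKM allows levels of different genes to be set side by side. All comparisons below describe these pooled values of a single cell line, and where a pair of FPKM values is given, normoxia comes first.

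Passage from G1 into S phase depends on cyclin-dependent kinases (CDKs). D-type cyclins bind CDK4 and CDK6 and answer to growth signals, and E-type cyclins then bind CDK2 as DNA replication approaches. INK4 proteins block CDK4 and CDK6, while CIP/KIP proteins bind cyclin-CDK complexes more widely and restrain CDK2. Cyclin G2 is an unconventional cyclin linked to arrest rather than to proliferation. Low oxygen slows the cell cycle in many cell types, and G1 cyclins and CDK inhibitors are among the genes through which arrest in G1 can be brought about.

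Cyclin G2 and CDKN1A were higher in hypoxia and cyclins D1 and D2 were lower, each by at least 1.5-fold, and the other 6 genes stayed within that range. Changes are given as the log2 ratio of hypoxia to normoxia after 0.1 was added to the summed FPKM of each gene. All 10 genes had a mean FPKM of at least 0.5, the limit for a gene to be counted as expressed. Past 1.5-fold, 2 of the 10 genes were higher, against 9.95% of the 12106 expressed genes, and 2 of the 10 were lower, against 11.2%. Past 2-fold, the same 2 genes were higher (3.21% of all expressed genes) and none was lower (2.62%). In each direction the background share past 1.5-fold corresponds to about 1 gene of 10, so the counts are not read as a property of the set. The median log2 change was 0.16 over the 10 genes and -0.07 over all expressed genes. Among the transcripts, 12 of the 13 had a mean FPKM of at least 0.5, of which 2 were higher past 1.5-fold (10.5% of 18190 expressed transcripts) and 4 lower (14.3%).

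**Figure D1:**
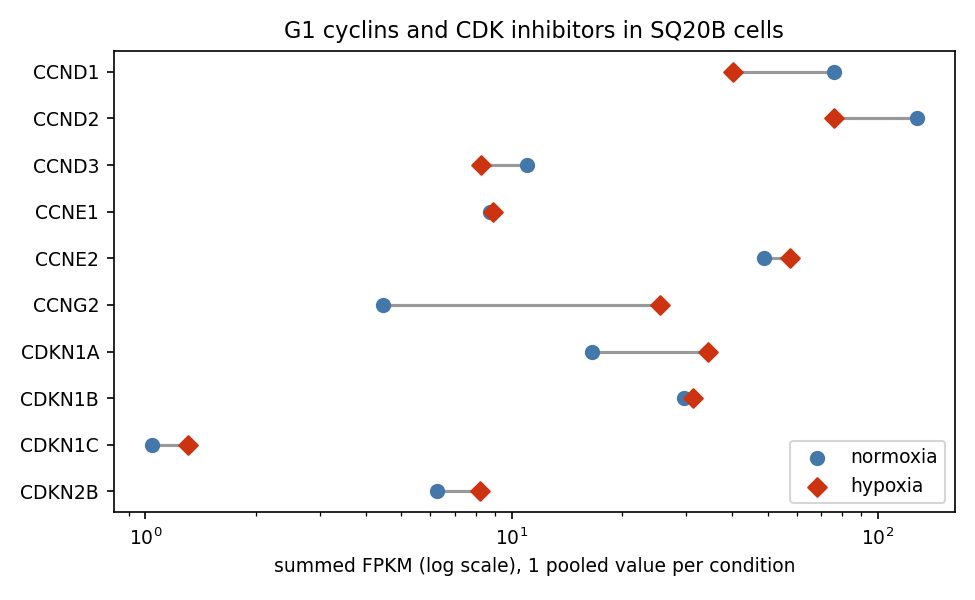
Summed FPKM of each gene (log axis) in normoxia (circles) and hypoxia (diamonds), 1 pooled value per condition joined by a line. CCNG2 moves from 4.45 to 25.4 FPKM and CDKN1A from 16.6 to 34.4, while CCND1 and CCND2 move the other way.

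The pooled data were checked for marks of the cell line and the treatment. Among 8 squamous epithelial markers, KRT5 had 398 FPKM under normoxia against 442 under hypoxia and TP63 42.8 against 44.6. KRT6A was low and lower past 1.5-fold (5.10 and 3.26), and no row was paired with KRT14. Of 8 markers of immune, endothelial, fibroblast and muscle cells, CD68 was listed at 2.36 and 2.86 FPKM and COL3A1 at 0.05 and 0.11. No row was paired with the other 6. A gene without a paired row is not thereby shown to be absent from the cells. All 9 genes with a row, of 10 on a hypoxia check list, were higher past 1.5-fold. Their log2 changes ran from 1.02 (VEGFA) to 4.77 (CA9, a carbonic anhydrase). FPKM summed over all rows was 536005 in normoxia and 458431 in hypoxia. Scaling both conditions to equal sums moved the median log2 change of all expressed genes by 0.22, and small changes below are to be read against that shift. In bulk RNA, a lower level may reflect fewer cells in the phase that expresses a gene or less RNA per cell, which cannot be told apart.

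The promoters of CCNG2, CDKN1A and CDKN1B are shown because these genes ranged from the largest increase to almost none. The RefSeq promoter table (GRCh38.p14) had entries for 6 of the 10 genes (CCND3, CCNE1, CCNG2, CDKN1A, CDKN1B and CDKN2B). The 250 bases upstream of the annotated start matched GRCh37 exactly once each, and are given there on the plus strand of the chromosome, which is the sense strand of all 3 genes. Capitals mark the core of the hypoxia response element, ACGTG or GCGTG, on either strand. HIF, the hypoxia-inducible transcription factor, is known to bind such cores.
CCNG2, chr4:78078110-78078359: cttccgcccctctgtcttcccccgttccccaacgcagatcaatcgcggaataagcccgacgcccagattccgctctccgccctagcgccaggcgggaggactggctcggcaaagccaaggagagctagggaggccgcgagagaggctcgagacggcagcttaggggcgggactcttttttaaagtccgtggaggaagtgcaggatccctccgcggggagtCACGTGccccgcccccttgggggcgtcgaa
CDKN1A, chr6:36646241-36646490: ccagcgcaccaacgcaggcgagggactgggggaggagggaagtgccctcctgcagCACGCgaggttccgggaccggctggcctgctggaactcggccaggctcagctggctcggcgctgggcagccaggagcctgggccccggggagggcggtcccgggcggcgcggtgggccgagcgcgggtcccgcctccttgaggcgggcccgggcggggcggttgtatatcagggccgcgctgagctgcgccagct
CDKN1B, chr12:12870052-12870301: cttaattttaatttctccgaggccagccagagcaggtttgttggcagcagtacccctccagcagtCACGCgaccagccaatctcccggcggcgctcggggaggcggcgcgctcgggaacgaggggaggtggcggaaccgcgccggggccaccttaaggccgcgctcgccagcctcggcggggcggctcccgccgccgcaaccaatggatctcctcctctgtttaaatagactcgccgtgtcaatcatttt
The CCNG2 promoter held ACGTG on both strands, as the palindrome CACGTG that starts 30 bases upstream of the start. CACGTG is also an E-box, the site of MYC-type factors. CDKN1A and CDKN1B each held GCGTG on the minus strand, 195 and 185 bases upstream. CCND3 held GCGTG in 1 of its 3 entries, and neither core was found in the window of CCNE1 or CDKN2B. In the windows of all 35116 promoters in the table, ACGTG was found in 18.5%, GCGTG in 32.2%, either in 43.2% and CACGTG in 6.34%. ACGTG was present for 30.3% of 928 expressed genes with a promoter entry that were higher past 1.5-fold, and for 28.9% of all 9671 expressed genes with an entry. A match in this window describes the letters only. CDKN1A and CDKN1B held the same core, with log2 changes of 1.05 and 0.08. The start used for CDKN1A lies 2254 bases inside its locus, and whether its window belongs to the main listed transcript was not tested. The share of GCGTG among genes past 1.5-fold was not computed, and whether either core acts in these cells was not tested.

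CCNG2 had the largest change of the 10 genes. Its single listed transcript, NM_004354 (chromosome 4, 78078357 to 78091213 in hg19), was at 4.45 FPKM in normoxia and 25.4 FPKM in hypoxia. The log2 change of 2.49, or 5.61-fold, was the 42nd highest of 12106 expressed genes, and 0.339% of them had a higher one. By level, CCNG2 went from the 35.0 percentile of expressed genes to the 74.4 percentile. In normoxia it was ninth of the 10 genes, above CDKN1C alone, and in hypoxia it was sixth. CCND1 RNA was 17.0 times as abundant as CCNG2 RNA in normoxia and 1.59 times in hypoxia.

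The genes closest to CCNG2 in both conditions were HK2, PFKFB3 and BHLHE40, measured as the distance between log2 FPKM values over the 2 pooled points. HK2, which encodes a hexokinase of glycolysis, was at 4.60 and 24.5 FPKM. PFKFB3, a regulator of glycolytic flux, was at 4.18 and 27.4, and BHLHE40, a transcriptional repressor, was at 4.18 and 30.8. With 2 points, such likeness means only a similar level and change.

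CDKN1A encodes p21, a CIP/KIP inhibitor known to be induced in cell cycle arrest. It was at 16.6 FPKM under normoxia against 34.4 under hypoxia, giving a log2 change of 1.05 or 2.07-fold, and 2.87% of expressed genes had a higher one. Nearly all of it was assigned to NM_001220777 (chromosome 6, locus 36644237 to 36655116), at 16.5 and 34.2 FPKM. The other listed transcript, NM_078467, was at 0.0997 and 0.208 FPKM, below the limit for expression, and held 0.60% of the gene in both conditions. The start that follows the promoter printed above lies 2254 bases inside this locus, so it is not the start at the outer edge. The genes closest to CDKN1A in level and change were MKNK2, ITGB6 and CPOX, with log2 changes of 1.03, 0.95 and 0.88.

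The other CIP/KIP genes changed less. CDKN1B, which encodes p27, the inhibitor typical of quiescent cells, was at 29.5 FPKM in normoxia and 31.3 in hypoxia (chromosome 12, 12870302 to 12875305). Its log2 change of 0.08 lay above that of 63.4% of expressed genes. CDKN1C, an imprinted gene that encodes p57, was the least abundant of the 10 genes, at 1.04 and 1.30 FPKM (chromosome 11, 2904448 to 2906995). Its log2 change of 0.30 fell to 0.17 when 1 rather than 0.1 was added. Summed, the CIP/KIP genes went from 47.1 to 67.0 FPKM, and most of that difference was CDKN1A. CDKN1A made up 35.1% of the sum in normoxia and 51.3% in hypoxia, and CDKN1B 62.6% and 46.7%. The ratio of CDKN1A to CDKN1B was 0.561 in normoxia and 1.10 in hypoxia, so the more abundant of these inhibitors differed between the conditions.

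CDKN2B encodes p15, an INK4 inhibitor of CDK4 and CDK6 that is known to respond to TGF-beta. Its single listed transcript, NM_004936, was at 6.24 FPKM under normoxia against 8.22 under hypoxia, giving a log2 change of 0.39 or 1.31-fold. With FPKM scaled to equal sums the log2 change was 0.61, just past 1.5-fold. The gene lies on chromosome 9 (22002902 to 22009304 in GRCh37), within the long noncoding gene CDKN2B-AS1 on the other strand, whose 7 listed transcripts summed to 2.80 FPKM in normoxia and 3.35 in hypoxia. The libraries were stranded, but whether strand was used in assigning reads is not given in the sources used here.

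**Figure D2:**
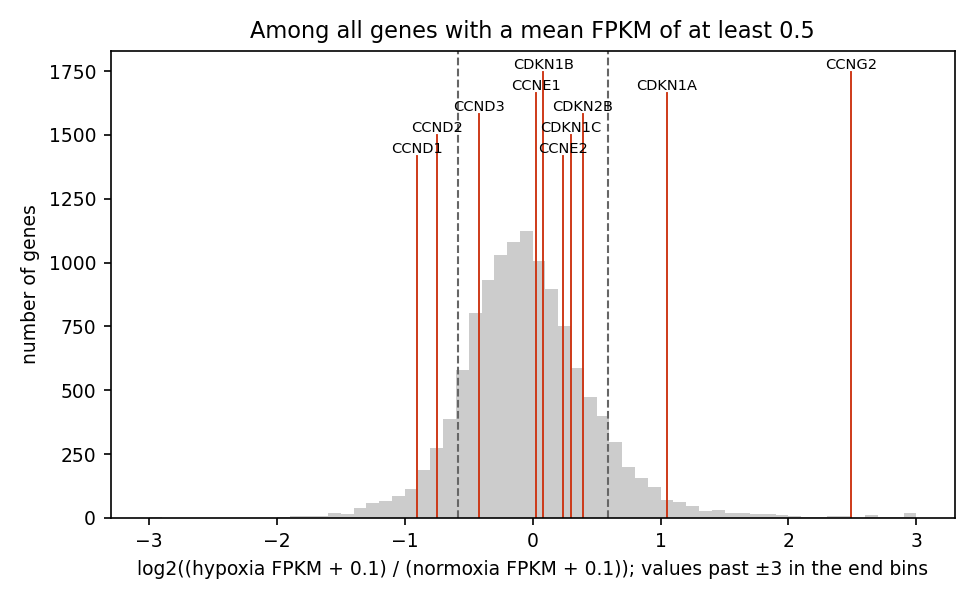
Number of expressed genes by log2 change between hypoxia and normoxia (grey bars), with the 10 genes as labelled red lines and 1.5-fold as dashed lines. CCNG2 lies at 2.49 in the far right of the distribution, CDKN1A at 1.05, and CCND1 and CCND2 left of the lower dashed line.

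Cyclins D1 and D2 were lower in hypoxia past 1.5-fold, and cyclin D3 was within it. CCND1 (NM_053056, chromosome 11, 69455873 to 69469242) was at 75.7 FPKM under normoxia against 40.3 under hypoxia, giving a log2 change of -0.91 or 1.88-fold lower, and 3.50% of expressed genes had a lower one. CCND2 (NM_001759, chromosome 12, 4382902 to 4414522) was at 127 and 75.8 FPKM, a log2 change of -0.75 or 1.68-fold lower. CCND2 was the most abundant of the 10 genes in both conditions. With equal sums CCND2 changed by -0.52 and with quantile normalization by -0.48, within 1.5-fold, while CCND1 stayed past 1.5-fold lower under each of the 9 other settings of scaling, filter, pseudocount and transcript choice. Processed pseudogenes of CCND2, CCND3 and CCNG2 are annotated, and how reads that fit both were shared is not given in the sources used here.

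CCND3 was the one D-type cyclin with several listed transcripts, and they differed. The gene sum was 11.0 FPKM under normoxia against 8.24 under hypoxia, giving a log2 change of -0.42. NM_001136125 was at 3.96 and 1.93 FPKM and NM_001760 at 2.31 and 1.26 (log2 change -0.82), both lower past 1.5-fold. NM_001136126 was at 4.75 and 5.05 FPKM (0.09), so that its share of CCND3 went from 43.1% to 61.2%. If CCND3 is represented by this most abundant transcript alone, its direction turns from lower to slightly higher. The 3 transcripts overlap (chromosome 6, 41902671 to 42016632), and their difference could not be tested on pooled values.

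The E-type cyclins were nearly level. CCNE1 (NM_001238, chromosome 19, 30302901 to 30315215) was at 8.75 FPKM under normoxia against 8.88 under hypoxia, giving a log2 change of 0.02. CCNE2 (NM_057749) was at 48.8 and 57.4 FPKM, a log2 change of 0.23 or 1.18-fold. CCNE2 thus exceeded CCNE1 by 5.58 times in normoxia and 6.46 times in hypoxia. CCNE2 lies on chromosome 8 (95891998 to 95908906 in GRCh37), and its end overlaps INTS8 on the other strand, which was at 54.4 and 50.4 FPKM.

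Set side by side, the pools of G1 cyclins and inhibitors had different proportions in the 2 conditions. The D-type cyclins summed to 214 FPKM in normoxia and 124 in hypoxia (log2 change -0.78), and the E-type cyclins to 57.6 and 66.3 (0.20). The ratio of D-type to E-type RNA was 3.72 in normoxia and 1.88 in hypoxia. The ratio of D-type and E-type cyclins together to the CIP/KIP inhibitors was 5.76 in normoxia and 2.85 in hypoxia. Such ratios within a condition do not change when a condition is multiplied by 1 factor, as in equal sums, and they describe RNA, not protein. Within the D-type pool the composition was similar, with CCND2 at 59.5% and 61.0% and CCND1 at 35.4% and 32.4%. In order of level, normoxia ran from CCND2, CCND1 and CCNE2 through CDKN1B and CDKN1A to CCND3, CCNE1, CDKN2B, CCNG2 and CDKN1C. In hypoxia CCND2 was followed by CCNE2, CCND1, CDKN1A, CDKN1B and CCNG2, then CCNE1 and CCND3, each at most 1.08 times the next, CDKN2B, which was 6.30 times the level of CDKN1C, the last. Whether neighbours in these orders differ beyond replicate spread was not tested.

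**Figure D3:**
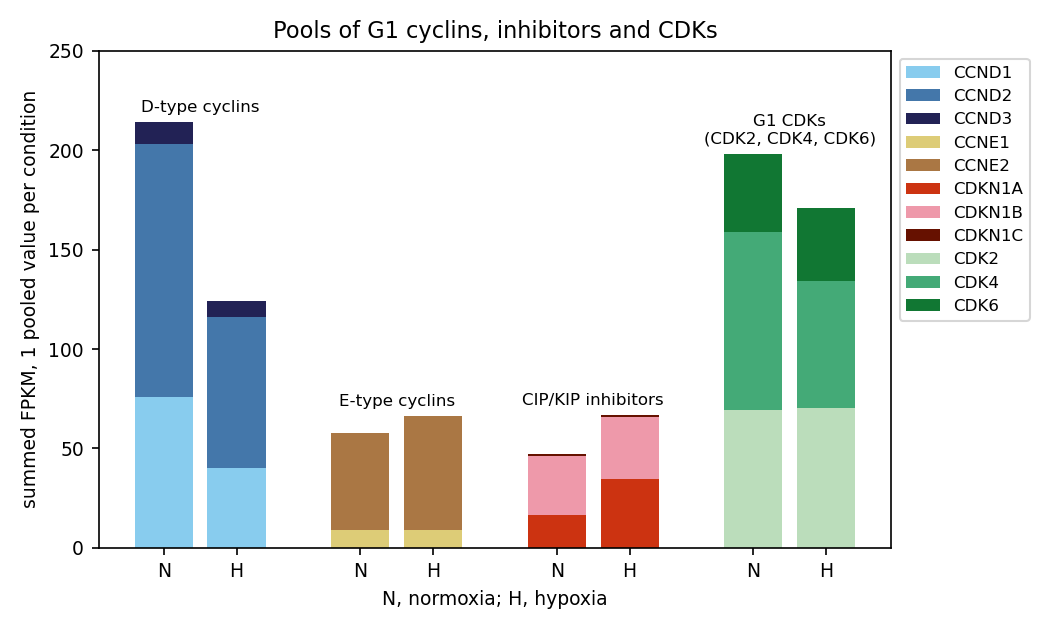
Summed FPKM of the D-type cyclins, E-type cyclins, CIP/KIP inhibitors and G1 CDKs in normoxia (N) and hypoxia (H), stacked by gene, 1 pooled value per condition. The D-type bar drops from 214 to 124 FPKM and the CIP/KIP bar goes from 47.1 to 67.0. The E-type bar goes from 57.6 to 66.3 and the CDK bar from 198 to 171.

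CDK2, CDK4 and CDK6, the kinase partners of the D-type and E-type cyclins, stayed within 1.5-fold. CDK2 was at 69.4 FPKM in normoxia and 70.2 in hypoxia, and CDK6 at 39.1 and 36.8, a log2 change of -0.09 that turned positive under equal sums and quantile normalization. CDK4 was at 89.7 and 64.1 FPKM (-0.48). Of 7 genes for G1 CDKs and the CDK-activating kinase, none was higher and 1 was lower past 1.5-fold, against 9.95% and 11.2% of all expressed genes. The lower gene was CCNH, the cyclin partner of CDK7, at 31.3 and 17.8 FPKM. Among 4 other CDK inhibitors or phosphatases, CDKN3 was lower (251 and 153 FPKM, -0.72), though within 1.5-fold under equal sums and quantile normalization. CDKN2A, at 15.8 and 12.9 FPKM, CDKN2C, at 9.18 and 10.3, and CDKN2D, at 2.31 and 2.74, stayed within 1.5-fold. Most of the CDKN2A sum (83.4% in normoxia) was NM_058195, which encodes another protein, ARF. NM_000077, which encodes the INK4 inhibitor p16, was low and, as deposited, lower past 1.5-fold (1.45 and 0.912 FPKM, -0.61).

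Genes that act on the stability or activity of G1 cyclin-CDK complexes were mostly a little lower. Of 12 such genes, 11 had log2 changes below 0, against 56.4% of all expressed genes, with a median of -0.19. Under equal sums 5 did, where the median of all expressed genes was 0.15. Past 1.5-fold, 2 were lower, against 11.2% of all expressed genes. They were CDC25A, a phosphatase that activates CDK2 (20.3 and 12.5 FPKM, -0.69), and CKS2, a CDK-binding subunit (629 and 403 FPKM, -0.64). CKS2 was within 1.5-fold after median centring and quantile normalization, and both were under equal sums. SKP2, which targets p27 for degradation, was at 108 and 93.9 FPKM, and FBXW7, which targets cyclin E, at 17.8 and 16.7. Both had log2 changes below 0 as deposited (-0.20 and -0.09) and above 0 under equal sums, and SKP2 under quantile normalization too.

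FOXO factors are known regulators of CCNG2, CDKN1B and CDKN1A. The 3 analysed FOXO genes were all above 0, while 56.4% of all expressed genes were below 0. FOXO1 (1.81 and 2.89 FPKM, 0.65) and FOXO4 (0.56 and 0.95 FPKM, 0.67) were higher past 1.5-fold, against 9.95% of all expressed genes. Both were low, with FOXO4 in normoxia close to the limit of 0.5 for expression, and their calls with other pseudocounts are not given. FOXO3 was at 8.72 and 12.7 FPKM (0.53) and past 1.5-fold only under the 3 other scalings.

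Other cyclins served as a comparison. Of 16, 13 were expressed, and 1 was higher and 4 lower past 1.5-fold, against 9.95% and 11.2% of all expressed genes. The 4 were CCNF (11.2 and 4.35 FPKM, -1.34), CCNB1 (376 and 168, -1.16), CCNA2 (111 and 65.8, -0.75) and CCNB2 (159 and 106, -0.59), all of them cyclins of S, G2 or M phase. CCNA2 and CCNB2 were within 1.5-fold under equal sums and quantile normalization, and CCNB2 after median centring too. CCNY, a membrane-associated cyclin, was higher (22.4 and 34.6 FPKM, 0.63). CCNG1, the closest relative of CCNG2, was at 294 and 268 FPKM, a log2 change of -0.13 that turned positive under equal sums and quantile normalization.

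Of 12 markers of S phase and proliferation, only TYMS was higher past 1.5-fold and none was lower, against 9.95% and 11.2% of all expressed genes. TYMS, which encodes thymidylate synthase, was at 41.1 and 91.8 FPKM (1.16). MKI67, the proliferation antigen, was at 23.9 FPKM in normoxia and 28.0 in hypoxia (0.23). The 12 markers had a median log2 change of -0.26. Of them, 10 were below 0, PCNA (829 and 607 FPKM) included, against 56.4% of all expressed genes. Under equal sums the median was -0.03 and 7 were below 0. Changes of this list stand beside those of the D-type cyclins, and its part in them was not tested.

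**Figure D4:**
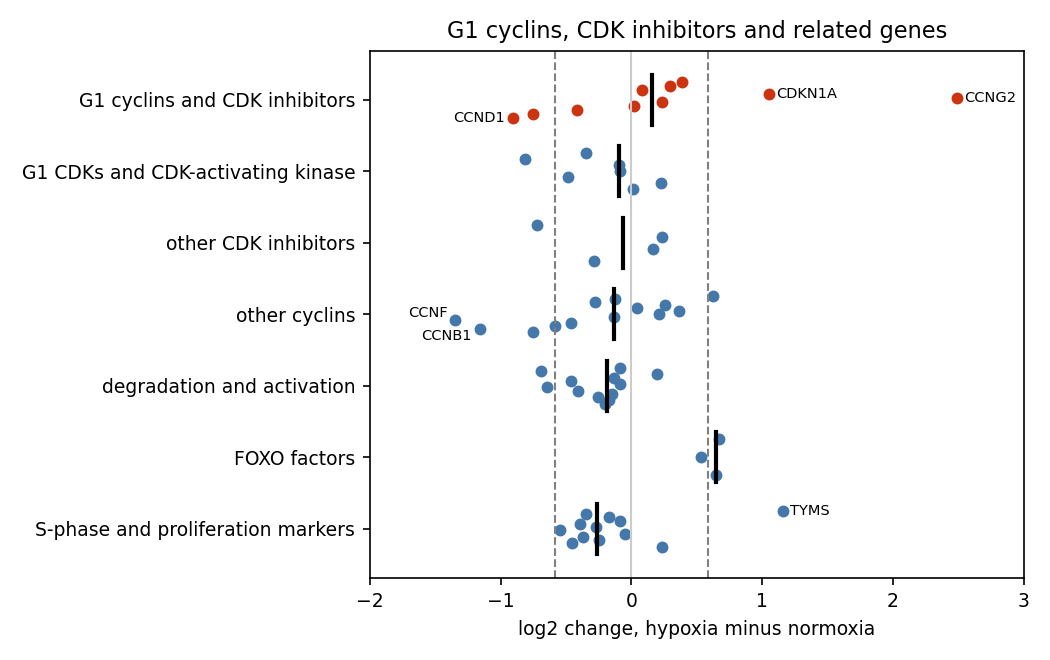
Log2 change of each expressed gene of the 10 G1 cyclins and CDK inhibitors (top) and of 6 lists of related genes, with medians as black bars and 1.5-fold as dashed lines. CCNG2 lies right of every other gene plotted, CCNF and CCNB1 lie furthest left, and the FOXO factors are all above 0.

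The choice of scaling moved calls as well as counts. With FPKM as deposited, 46.9% of all genes past 1.5-fold were higher, against 58.6% after median centring, 57.8% after quantile normalization and 78.8% with equal sums. Of the genes described here, 3 were then higher (CCNG2, CDKN1A and CDKN2B) and 1 lower (CCND1) with equal sums. The log2 change of CCNG2 ranged from 2.28 to 2.71 over all settings and that of CDKN1A from 1.01 to 1.27. CCND1 ranged from -0.91 to -0.68 and CCND2 from -0.75 to -0.48.

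**Figure D5:**
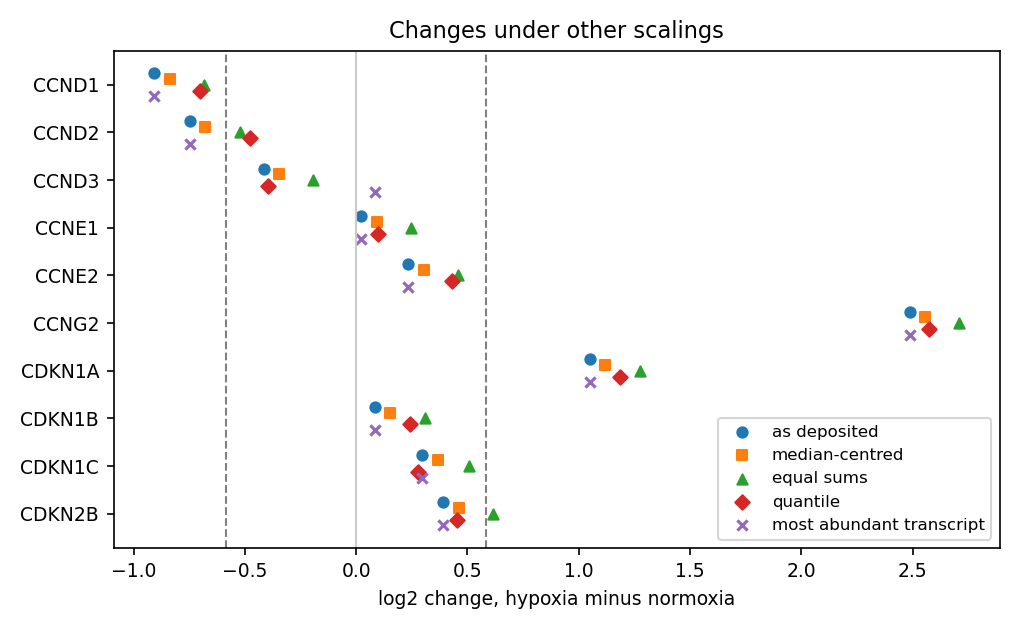
Log2 change of each gene with FPKM as deposited, after median centring, equal sums or quantile normalization, and with the most abundant transcript alone. Dashed lines mark 1.5-fold. CCND2 and CDKN2B cross them under another scaling, and CCND3 crosses 0 with its most abundant transcript.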

How the data were processed

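Poly(A)-selected, stranded RNA libraries of SQ20B cells (4 normoxia, 4 hypoxia) were aligned by the authors with STAR 2.3.0.1 to RefSeq hg19 and analysed with the Cufflinks suite 2.1.1 with standard parameters. The deposited FPKM values, 1 per transcript and condition, are the authors' values over the replicates. The deposited table also holds the authors' fold change, test statistic, p-value and q-value, none of which was used. Read counts and depths of single samples were not analysed here, so no interval is given and no replicate could be left out.

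RefSeq identifiers were paired with symbols through the RefSeq annotation of GRCh38.p14, which matched 97.9% of 24812 rows, and rows of a gene were summed (15 identifiers occurred on more than 1 row). Changes are log2 of (FPKM + 0.1) in hypoxia minus normoxia, which understates those of low genes. The background was all genes whose mean FPKM reached 0.5, and 1.5-fold was the threshold. Named are the 10 genes, genes of the fixed lists past 1.5-fold or given as levels, and the 3 genes nearest to each gene past 2-fold. Other genes of those lists are given as examples chosen after their values were seen. The result of 1 further list is not reported here. The genes and lists were chosen with earlier results of these data known. Locus starts in the table count from 0 and are printed from 1. The code for fold calls was run on simulated large changes only, which does not bear on how reliable the calls reported here are. Python 3.11.15, numpy 2.4.6, pandas 2.3.3 and matplotlib 3.10.9 were used.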

Additional observations from a re-analysis of the deposited data

How the results depend on the processing

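Of the 10 genes, the 2 higher past 1.5-fold (CCNG2 and CDKN1A) were past it under all 9 alternatives to pseudocount, filter, scaling and transcript choice, and at 2-fold. The count of genes lower past 1.5-fold was 1 rather than 2 with equal FPKM sums and with quantile normalization, since CCND2 came to -0.52 and -0.48, and it was 0 at a threshold of 2-fold. CDKN2B came to 0.61 with equal sums, which made 3 genes higher. CCND3 had a log2 change above 0 in 1 of 10 settings, and no other gene changed sign. No paired analysis was possible because the values are pooled per condition, and for the same reason leaving out single replicates could not be run. Adding 1 rather than 0.1 moved CCNG2 from 2.49 to 2.28 and CDKN1C from 0.30 to 0.17.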

Other observations

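The neighbouring CDKN2A locus (chromosome 9, 21967138 to 21994490 in hg19) encodes the INK4 protein p16 and, from another first exon and reading frame, the protein ARF. NM_058195, which encodes ARF, made up 83.4% of CDKN2A FPKM in normoxia and 81.2% in hypoxia, at 13.1 and 10.5 FPKM. NM_000077, which encodes p16, had 1.45 FPKM under normoxia against 0.912 under hypoxia (log2 change -0.61). CDKN2B, at 6.24 and 8.22 FPKM, was thus above NM_000077 in both conditions. These transcripts share exons, and how reads were divided between them was not tested.

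Of 25 expressed genes with cyclin-family symbols, a set chosen after the values were seen, 2 (CCNG2 and CCNY) were higher past 1.5-fold and 8 lower. Among all expressed genes 9.95% were higher and 11.2% lower. The median log2 change of the 25 was -0.13. They include CCNDBP1 (0.13), which encodes a cyclin D-binding protein rather than a cyclin. Of the 8, at least CCNB2, CCNA2 and CCND2 came within 1.5-fold under equal sums, at -0.36, -0.52 and -0.52. CCNG2 had the highest change and CCNY the next, 2.49 against 0.63. CCNJ (4.97 and 3.10 FPKM, -0.66) and CCNH were among the 8 beside the D-type, A-type, B-type and F-type cyclins. CCNJL, a relative of CCNJ, lay at 4.04 and 5.75 FPKM (0.50).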
